A study of Mus musculus with 14 samples.

Results

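Collagen genes were followed in white fat from under the skin (scWAT) of male mice, strain C57BL/6, aged 12 weeks. The exercised group (7 arrays) came from animals kept in cages with a running wheel for 11 days, and the sedentary group (7 arrays) from sedentary control animals of the same strain, sex and age, sampled under the same 11-day label. No genetic change or drug is given for either group. No label says that the arrays come from separate mice, so each p-value measures the spread between these samples. The tissue was checked by the adipokine Adipoq, whose signal was 48832 to 69118 over the 14 arrays, and by the fatty acid carrier Fabp4, whose signal was 85539 to 109066. Some genes of other cell types varied far more, and others did not. The skeletal muscle gene Acta1 ran from 961 to 66197 and the B cell gene Cd79b from 304.2 to 19025. The endothelial gene Pecam1 ran only from 3578.5 to 5844.9 and the preadipocyte gene Pdgfra from 6432.3 to 12659.

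The collagen genes were all genes whose single platform symbol has the form Col, a type number, the letter a and a chain number. They numbered 42 of 18193 genes with a single symbol and were measured by 82 of 45101 probe sets, and the brightest probe set, by mean over the 14 arrays, stood for each gene. By class, 11 genes were fibrillar, 6 were chains of type IV, 5 were chains of type VI and 20 were others. A probe set was tested where its mean signal reached 389.8, the 40th percentile, which kept 31 collagen genes (8 fibrillar, 6 type IV, 4 type VI and 13 others). The 11 below it were Col2a1, Col11a2, Col24a1, Col6a5, Col8a2, Col10a1, Col9a2, Col9a3, Col17a1, Col19a1 and Col26a1, with mean signals from 9.22 for Col9a2 to 328.4 for Col11a2. The lowest mean among the tested collagens was 394.4, for Col22a1.

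Collagens are secreted proteins in which chains wind around each other into a helix. Fibrillar collagens (types I, III and V among others) form the tension-bearing fibrils of connective tissue, type IV forms the sheet-like network of basement membranes, which surround each adipocyte and blood vessel, and type VI forms beaded filaments near cells and is abundant in adipose tissue. Chains are hydroxylated and folded in the endoplasmic reticulum, and after secretion lysyl oxidases cross-link them. Fibroblasts, preadipocytes, endothelial cells and adipocytes all contribute collagen to fat. In a bulk sample, fewer cells of a type and less RNA per cell cannot be told apart.

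The genes of the main type IV chains, Col4a1 and Col4a2, lie head to head. In RefSeq (GRCm38.p6) Col4a1 starts on the minus strand and Col4a2 on the plus strand, 21 bases apart. The windows from 250 bases before to 50 bases after each start, chr8:11312777-11313076 for Col4a1 and chr8:11312555-11312854 for Col4a2, share 78 bases (11312777 to 11312854), printed in capitals. They are shown because these genes are read in opposite directions from the same stretch and are compared with each other below.
Col4a1: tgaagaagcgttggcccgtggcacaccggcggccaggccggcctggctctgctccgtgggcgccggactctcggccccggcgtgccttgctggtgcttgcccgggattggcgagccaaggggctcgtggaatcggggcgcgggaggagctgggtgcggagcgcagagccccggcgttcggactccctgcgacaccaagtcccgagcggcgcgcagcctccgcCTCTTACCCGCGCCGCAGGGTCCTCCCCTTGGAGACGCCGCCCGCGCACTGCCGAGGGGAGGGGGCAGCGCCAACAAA
Col4a2: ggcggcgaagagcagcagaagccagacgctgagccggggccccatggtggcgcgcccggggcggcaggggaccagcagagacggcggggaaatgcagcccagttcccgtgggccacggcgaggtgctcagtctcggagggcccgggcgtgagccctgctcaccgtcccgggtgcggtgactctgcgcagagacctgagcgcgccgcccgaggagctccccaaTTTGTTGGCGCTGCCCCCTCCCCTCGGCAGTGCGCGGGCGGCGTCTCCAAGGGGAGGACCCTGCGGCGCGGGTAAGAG

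The type VI genes Col6a1 and Col6a2, in contrast, have starts 102640 bases apart on the same strand of chromosome 10. The windows shown are chr10:76725995-76726294 (minus strand) for Col6a1 and chr10:76623355-76623654 (minus strand, 1 of 2 listed starts) for Col6a2, the pair whose ratio passed the test below. Capitals mark matches to GGGCGG or its reverse CCGCCC, the core of an Sp1 motif.
Col6a1: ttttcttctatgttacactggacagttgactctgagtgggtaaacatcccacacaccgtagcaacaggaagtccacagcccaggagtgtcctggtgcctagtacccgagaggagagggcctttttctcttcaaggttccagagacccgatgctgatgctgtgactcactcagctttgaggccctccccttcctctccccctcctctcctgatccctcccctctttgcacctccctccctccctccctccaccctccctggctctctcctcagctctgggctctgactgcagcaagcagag
Col6a2: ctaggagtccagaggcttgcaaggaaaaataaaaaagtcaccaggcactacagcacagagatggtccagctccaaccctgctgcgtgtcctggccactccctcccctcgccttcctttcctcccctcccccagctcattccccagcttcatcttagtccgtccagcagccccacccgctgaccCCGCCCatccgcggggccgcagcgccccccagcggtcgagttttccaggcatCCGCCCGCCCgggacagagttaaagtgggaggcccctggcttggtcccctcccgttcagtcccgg
The motifs were searched on both strands, with overlapping matches counted separately: CCAAT, then GGGCGG, and the TATA box TATAAA. Promoters were listed for 33 of the 42 collagen genes, 36 windows in all. GGGCGG was in 22 of these (61.1%), against 35.7% of all 32851 windows, CCAAT in 13 (36.1% against 37.4%) and TATAAA in 5 (13.9% against 13.6%). The GC content of collagen and other windows was not compared. The Col4a1 window held 1 CCAAT and 1 GGGCGG, and the Col4a2 window 1 and 3. The GGGCGG match of Col4a1 lies in the shared bases, so it is counted in both windows. The Col6a2 window held 3 GGGCGG, while these letters were not in the Col6a1 window. A match is a description of the letters and not a binding site.

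Over the 31 tested collagens, 0 were called higher and 0 lower in exercised tissue (limma, Benjamini-Hochberg adjusted p under 0.05 over 12944 genes). Of all genes tested, 5.53% were called, 4% higher and 1.53% lower. Without adjustment, at p under 0.05, 0 collagens lay higher and 3 lower (Col4a2, Col6a2 and Col18a1), or 9.68%, where 21.8% of all genes passed (11.3% of all genes on the higher side and 10.5% on the lower). The difference was below 0 for 20 collagens and above 0 for 11. That is 64.5% below 0, beside 55% of all genes. The median difference was -0.09 log2 over the collagens and -0.03 over all genes. No collagen had groups without overlap, as 2.68% of all genes did. By class, the median difference was -0.06 for fibrillar genes, -0.15 for type IV, -0.23 for type VI and -0.01 for the others. In the spread of intervals, 24 of 31 genes had a 95% interval that lay within 1.5-fold in either direction, and 28 had one within 2-fold. Each interval is for a single gene, without adjustment, and for its chosen probe set only. Other probe sets can lie farther from 0, as the second of Col5a2 did at -0.44 (SE 0.17), so these counts do not bound a shift of the gene.

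**Figure D1:**
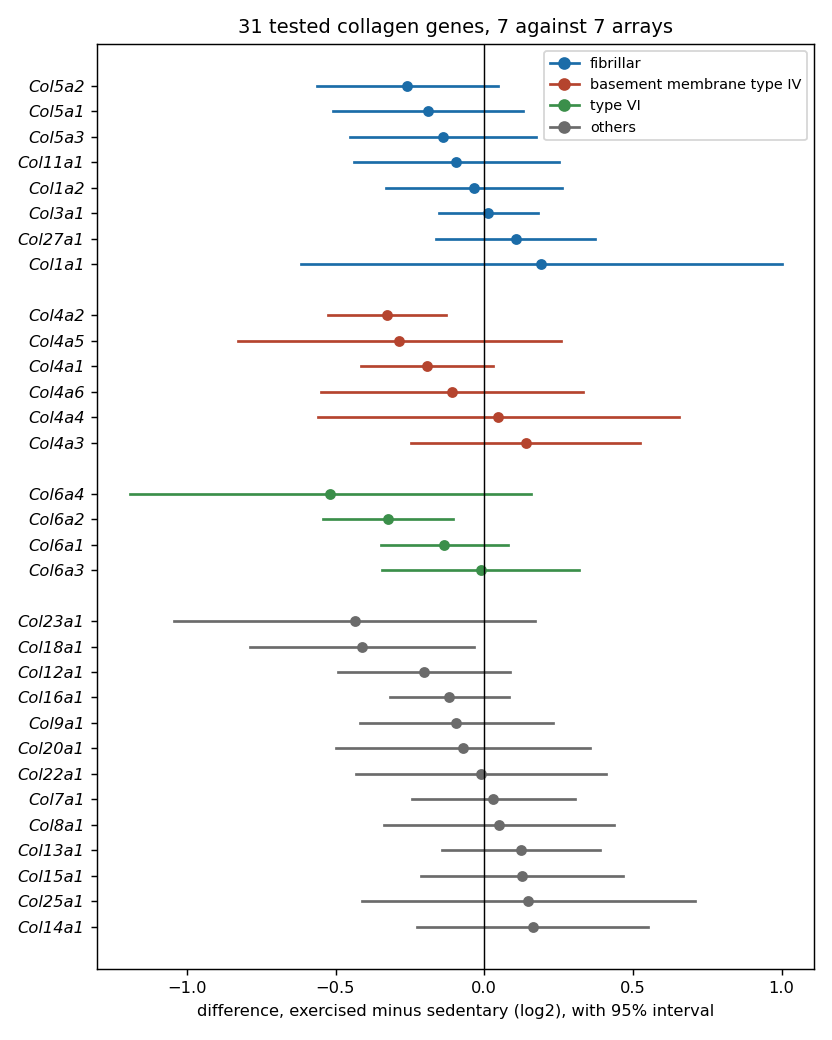
Difference between exercised and sedentary tissue for each tested collagen gene (points, log2 scale, horizontal axis) with its 95% interval (lines), by class. Intervals of Col4a2, Col6a2 and Col18a1 lie below 0, and that of Col1a1 is the widest, from -0.62 to 1.0.

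Among the fibrillar genes, the type I and III chains are the main load-bearing collagens. On their chosen probe sets Col1a2 and Col3a1 were close to level, while the interval of Col1a1 was too wide to tell. Other tested probe sets of these genes lay below 0, as given below. Col1a1, which encodes the first chain of type I, had signals from 5850.9 to 44358 (median 20039) in sedentary arrays and from 11760 to 40503 (median 19660) in exercised arrays. The ranges lie over one another, and sedentary array 7 is lowest. Means were 22449 ± 12895 and 23247 ± 9586 (SD, n = 7 each), a difference of 0.19 log2 (SE 0.38, interval -0.62 to 1.0, limma adjusted p = 0.798). Col1a2, its partner chain, was at 50931 ± 9056 and 49813 ± 10067, a difference of -0.03 (interval -0.33 to 0.26, adjusted p = 0.905). Col3a1, the chain of type III fibrils, varied least among the abundant fibrillar genes: 66604 ± 6662 against 67194 ± 6526, a difference of 0.01 (interval -0.15 to 0.18, adjusted p = 0.941).

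Type V collagen, which starts fibrils and limits their diameter, lay lower without passing the test. The difference was -0.19 for Col5a1, -0.26 for Col5a2 (SE 0.14, adjusted p = 0.306) and -0.14 for Col5a3, whose 7 exercised values were all below the sedentary median. Col11a1, a type XI chain known from cartilage, differed by -0.09, and Col27a1 by 0.11. Where every probe set was tested, other probe sets of the fibrillar genes did not always carry the same value. The second of Col5a2 gave -0.44 (unadjusted p = 0.0219, adjusted p = 0.163). That of Col3a1 gave -0.27 (adjusted p = 0.468) and that of Col1a1 -0.09, both opposite in sign to the chosen ones. The others of Col1a2 gave -0.16 and -0.19.

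**Figure D2:**
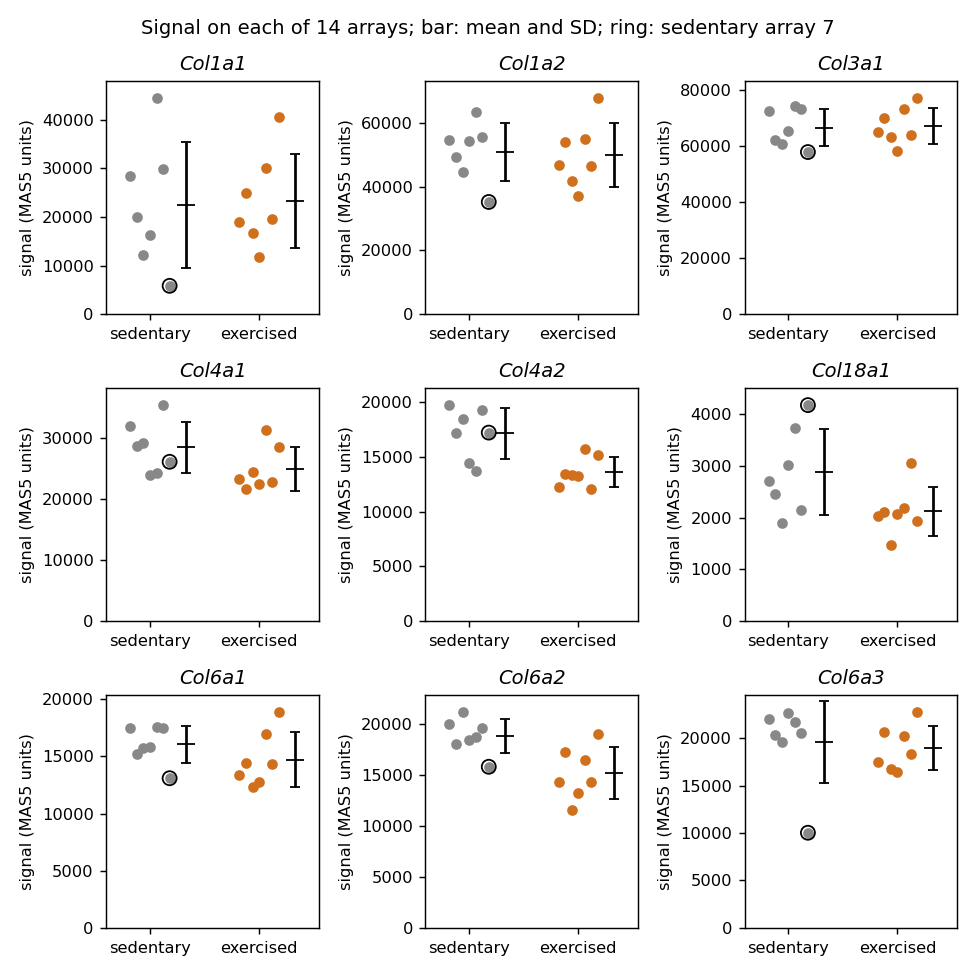
Signal on each array (points) for 9 collagen genes, sedentary in grey and exercised in orange, with the mean and SD as a bar beside each group (vertical axis in MAS5 signal units, from 0). Sedentary array 7 is ringed; it is the lowest sedentary point for Col1a1, Col1a2, Col3a1, Col6a1, Col6a2 and Col6a3.

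Col4a2, a main chain of the basement membrane network, came nearest to the threshold. Its sedentary signals ran from 13672 to 19731 (median 17219) and its exercised signals from 12059 to 15697 (median 13354). All 7 exercised arrays were below the sedentary median and 5 were below the lowest sedentary array, number 5. The means were 17154 ± 2322 and 13605 ± 1370, a difference of -0.33 log2 (SE 0.09, interval -0.53 to -0.13, adjusted p = 0.0525). Over 27 alternative settings of the processing the adjusted p ran from 0.00378 to 0.171 and passed in 7, while the difference stayed between -0.42 and -0.29. Sedentary arrays 5 and 4 held its lowest sedentary values. Without array 5 the difference was -0.38 (adjusted p = 0.0161), and without array 4 -0.37 (adjusted p = 0.0417). Without sedentary array 1, 3 or 6 it was -0.29, -0.31 and -0.30 (adjusted p = 0.0982, 0.0977 and 0.0973).

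Col4a1, its partner in the most common type IV molecule, had sedentary signals from 23914 to 35401 and exercised signals from 21725 to 31254, which overlap widely. The difference was -0.19 (SE 0.10, adjusted p = 0.293). Col4a3 and Col4a4, chains of the specialised network best known from kidney, differed by 0.14 and 0.05. Col4a5 differed by -0.29 (SE 0.25, adjusted p = 0.539) and Col4a6 by -0.11, but sedentary array 7 held their highest values, 7784.8 against 2057.5 to 3311.2 on the other sedentary arrays for Col4a5 and 1174.6 against 436.1 to 551.3 for Col4a6. Without that array the Col4a5 difference was -0.06.

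All 4 tested type VI chains lay below 0. Col6a2 had sedentary signals from 15819 to 21205 (median 18722) and exercised signals from 11527 to 19066 (median 14300). Exercised arrays 2, 5 and 7 lay above the lowest sedentary array, number 7, so the groups overlap. Means were 18835 ± 1709 and 15178 ± 2570, a difference of -0.32 (SE 0.10, interval -0.54 to -0.10, adjusted p = 0.0816). It passed in 4 of 27 settings (adjusted p 0.0221 to 0.28). Among them were leaving out sedentary array 7, with -0.36 and adjusted p = 0.0485, and leaving out exercised array 7, with -0.38 and adjusted p = 0.0472. These arrays held its lowest sedentary and its highest exercised value. Over all fits that left out 1 array the difference was -0.38 to -0.26. In the fit of every probe set, the other one of Col6a2 gave -0.12 (adjusted p = 0.676).

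Col6a1 differed by -0.13 (SE 0.10, adjusted p = 0.458) and Col6a3 by -0.01 (SE 0.16, adjusted p = 0.976). Col6a3 encodes the largest chain, whose cleaved end is the signalling fragment endotrophin. Its sedentary array 7 was at 10034 where the other 6 were at 19620 to 22698, and without that array the difference was -0.17. Col6a4 differed by -0.52 (SE 0.32, adjusted p = 0.359) at a low signal, 682.6 ± 232.5 against 493.3 ± 237.9.

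Of the remaining classes, Col18a1 stood out by its probe sets. Col18a1 encodes a basement membrane collagen from which endostatin, an inhibitor of vessel growth, is cut. Its chosen probe set had sedentary signals from 1905 to 4174.6 (median 2708.9) and exercised signals from 1462.3 to 3053.5 (median 2068.1), which overlap. The difference was -0.41 (SE 0.18, interval -0.79 to -0.04, adjusted p = 0.187). Its dimmer probe set, singled out after its values were seen, had sedentary signals from 1967.6 to 3428.7 (median 2482.6) and exercised signals from 1370.2 to 1954 (median 1594.7). These groups do not overlap, as was so on the lower side for 0.64% of all probe sets. Where every probe set was tested, its difference was -0.57 (SE 0.12, adjusted p = 0.0114), and it was the 1 of 47 collagen probe sets called, beside 4.42% of all probe sets. It was called in 24 of 26 alternative settings, missing with skeletal muscle markers as a covariate (-0.57, adjusted p = 0.0671) and with the replicate number as a block (adjusted p = 0.0811), and the chosen set in 0 of 26.

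Col15a1, a close relative of Col18a1 in the basement membrane zone, differed by 0.13. Among collagens that sit on fibril surfaces, Col14a1 differed by 0.16, Col12a1 by -0.20, Col16a1 by -0.12, Col9a1 by -0.09, Col20a1 by -0.07 and Col22a1 by -0.01. The short-chain network collagen Col8a1 differed by 0.05, the anchoring fibril chain Col7a1 by 0.03, and the membrane-spanning Col13a1, Col23a1 and Col25a1 by 0.12, -0.44 and 0.15. None of these passed at an unadjusted p under 0.05. Single arrays moved several of them: Col23a1 was at -0.17 without exercised array 2, Col14a1 at 0.02 without exercised array 7, and Col15a1 at 0.045 without sedentary array 4. Col25a1 was at -0.065 without sedentary array 7. Across the 42 genes, 16 further probe sets passed the filter and 12 had the sign of the chosen one.

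Chains of the same molecule moved together from array to array. With each value taken as a deviation from its group mean, over 14 arrays, Pearson's r was 0.94 for Col1a1 and Col1a2 (Spearman's rho 0.94), 0.87 for Col4a1 and Col4a2 (0.88), 0.92 for Col5a1 and Col5a2 (0.89), 0.84 for Col6a1 and Col6a2 (0.82) and 0.74 for Col6a1 and Col6a3 (0.86). The permutation p of r, adjusted over these 5 relations, ran from 5.00e-05 to 4.40e-04, and that of rho from 1.00e-04 to 0.00149. Leaving out the 2 arrays farthest from the median of the first gene gave r = 0.91, 0.86, 0.85, 0.73 and 0.76 in the same order. The chains on an array share its RNA and its scaling. The same correlation was not computed for chains of different molecules, so these values do not show a relation particular to partner chains.

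**Figure D3:**
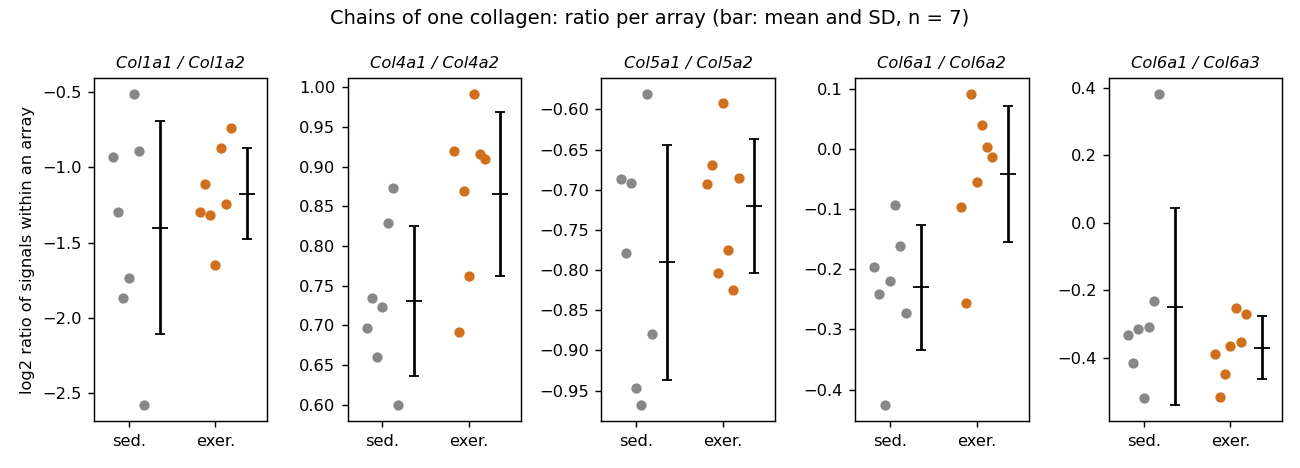
Log2 ratio of the signals of 2 chains within each array (vertical axes, each with its own range), for 5 chain pairs, sedentary (sed., grey) and exercised (exer., orange), with mean and SD as bars. For Col6a1 over Col6a2, 6 exercised arrays reach -0.10 or more and 1 lies at -0.26.

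The balance between partner chains was compared as a log2 ratio within each array, whose level depends on the probes and is not a ratio of molecules. For Col6a1 over Col6a2 it was -0.23 ± 0.10 in sedentary and -0.04 ± 0.11 in exercised arrays, a difference of 0.19 (exact permutation p = 0.00874, 0.0437 after adjustment over 5 pairs). The adjusted p passed in 3 of 14 fits that each left out an array and missed in 11 (0.00874 to 0.0816), and the difference was 0.16 to 0.22 throughout. When every probe set of a gene was averaged it was 0.085 (adjusted p = 0.101). For Col4a1 over Col4a2 the difference was 0.13, from 0.73 ± 0.09 to 0.87 ± 0.10 (exact permutation p = 0.0286, adjusted p = 0.0714). Col1a1 over Col1a2 differed by 0.23, Col5a1 over Col5a2 by 0.07 and Col6a1 over Col6a3 by -0.12, each with an exact permutation adjusted p = 0.464. Col8a1 and Col8a2 were not compared because Col8a2 was below the filter.

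Single arrays set much of the spread. Sedentary array 7 was lowest of its group for 14 of the 31 genes and highest for 8, and exercised array 7 was highest of its group for 13. On sedentary array 7 the epithelial keratins Krt8 and Krt18 were at 3252.3 and 2048.3, above at most 793.9 and 790.9 on the other arrays. Its mean log2 level of 11 lymphocyte markers was 8.24, against 11.33 to 12.67 on the other sedentary arrays, and its mean of 12 fibroblast markers was the lowest of all arrays, 12.58. Exercised arrays 5 and 7 also had low lymphocyte means, 8.10 and 9.38. With the lymphocyte markers as a covariate, the Col4a2 difference was -0.36 (adjusted p = 0.0314) and that of Col6a2 -0.33 (adjusted p = 0.079). The part of the keratins and fibroblast markers was not tested. Without sedentary array 7 the Col1a1 difference was -0.09, Col5a1 -0.28, Col5a2 -0.33 and Col8a1 0.21, and Col4a2 kept -0.32 (adjusted p = 0.0631).

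**Figure D4:**
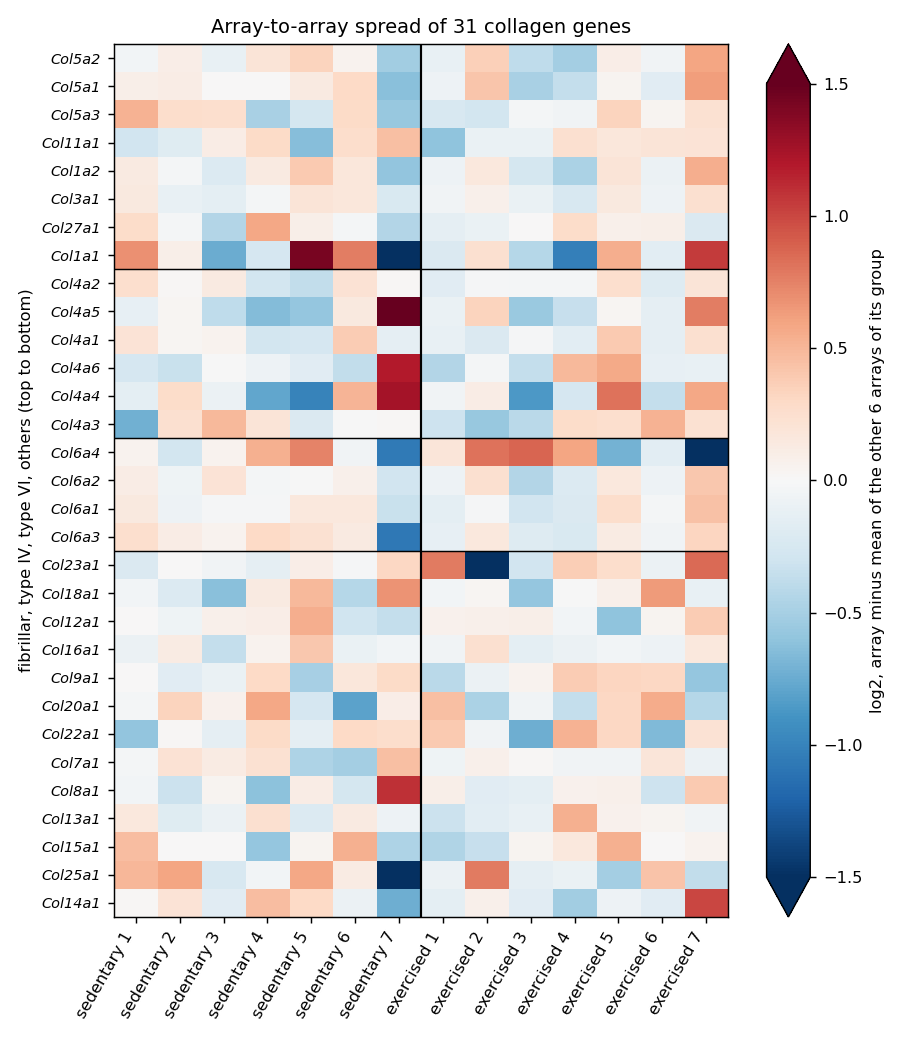
Each array's log2 value minus the mean of the other 6 arrays of its group (colour, red higher and blue lower, ends of the scale at 1.5) for the 31 tested collagen genes, by class from top to bottom. Sedentary array 7 departs by more than 0.5 for 5 genes upward and 9 downward, and exercised array 7 for 8 upward and 2 downward.

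Of the enzymes and chaperones that make collagen, 16 of 24 tested genes lay below 0 (66.7%, beside 55% of all genes). Of these 24 genes for synthesis and cross-linking, 0 were called, while without adjustment 9 passed on the lower side and 0 on the higher (37.5%, beside 21.8% of all genes), and the median was -0.13. Serpinh1, the collagen-specific chaperone, had means of 32378 ± 3657 and 24408 ± 4718, a difference of -0.42 (SE 0.12, adjusted p = 0.0501). Fkbp14, a prolyl isomerase of the endoplasmic reticulum, differed by -0.24 (adjusted p = 0.0645). The other 7 were the hydroxylases Plod3, P4ha2 and P3h1 with the partners P4hb, Crtap and Ppib, and the cross-linking enzyme Lox, at -0.47 to -0.18.

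Of 19 genes for breakdown and its inhibitors, 0 were called and the median was 0.00. Without adjustment, 1 passed on the higher side and 3 on the lower (21.1%, near the 21.8% of all genes). The inhibitors Timp3 and Timp4 had the smallest p, and lay in opposite directions: 0.60 (adjusted p = 0.0541) and -0.93 (adjusted p = 0.0837). Of 11 receptors, Lair1, an inhibitory receptor on immune cells, differed by -0.60 (adjusted p = 0.0908) and Cspg4, a proteoglycan that binds type VI collagen, by 0.37 (adjusted p = 0.153). Of 16 fibril partners, the proteoglycans Bgn and Fmod differed by -0.35 and -0.88 (adjusted p = 0.111 and 0.162). Of 14 other basement membrane genes, Nid2, which links laminin to type IV collagen, differed by -0.53 and Sparc, a collagen-binding matrix protein, by -0.22 (adjusted p = 0.115 and 0.157). No member of these lists was called.

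**Figure D5:**
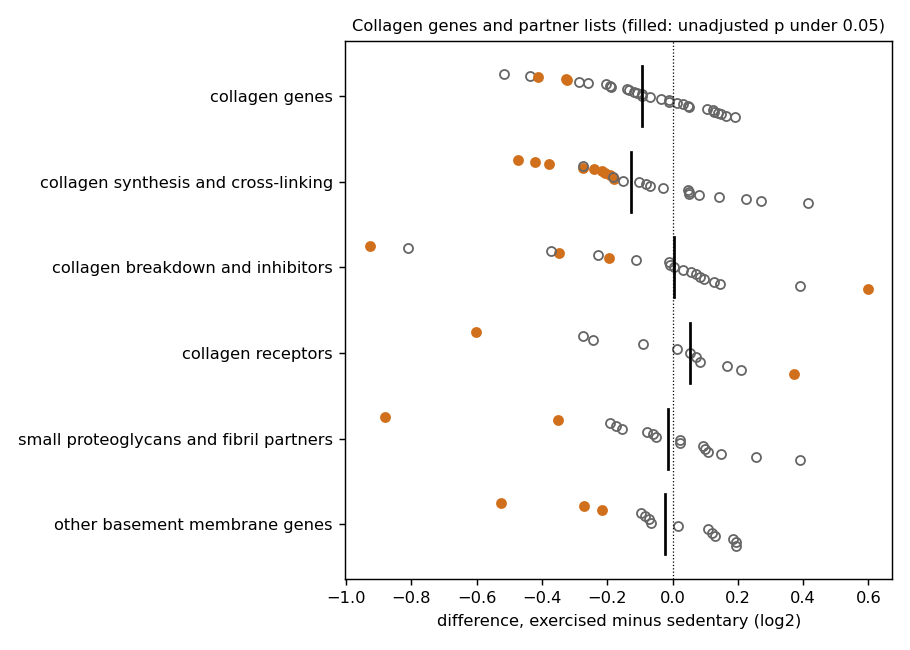
Difference between groups (log2, horizontal axis) for each tested gene of the collagens and 5 partner lists. Filled points have an unadjusted p under 0.05 and vertical lines are medians; 9 of 24 genes for synthesis and cross-linking are filled, all below 0.

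Of the markers of cell types that the tissue can hold, 2 genes were called, where 5.53% of all genes tested were. The 2 were Tyrobp, 1 of 13 macrophage markers, and Epcam, 1 of 7 bone, cartilage and epithelial markers. The other marker lists had 0 calls. Of 12 fibroblast and preadipocyte markers, 0 were called and 9 lay below 0. Pdgfra, the receptor that marks preadipocytes, differed by -0.39 (adjusted p = 0.0501) and the actin-binding protein Gsn by 0.13 (adjusted p = 0.253). The mean log2 level of this list was 12.58 to 13.28 in sedentary and 12.88 to 13.26 in exercised arrays. All 13 macrophage markers lay below 0, with Tyrobp called (-0.52, adjusted p = 0.0482), at 12.75 to 13.64 against 12.63 to 12.98. All 20 skeletal muscle markers lay above 0 (median 2.75) and 0 were called, at 8.38 to 12.77 against 8.70 to 14.76. Without adjustment, 14 of them passed as higher and 0 as lower (70%, beside 21.8% of all genes). Mb, the oxygen carrier of muscle, differed by 3.24 (adjusted p = 0.078) and Myl1 by 1.91 (adjusted p = 0.149). No marker was at 0, as the lowest signal on any array was 0.1. With the muscle markers as a covariate, the Col4a2 difference was -0.39 (adjusted p = 0.0975) and that of Col6a2 -0.39 (adjusted p = 0.133). The part of the fibroblast and macrophage markers was not tested.

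Of 11 adipocyte markers, 0 were called and 10 lay above 0. Without adjustment, 5 passed as higher and 1 as lower (54.5%, beside 21.8% of all genes). The hormone Lep differed by -1.41 (adjusted p = 0.105) and the transcription factor Cebpa by 0.43 (adjusted p = 0.108). All 11 lymphocyte markers lay below 0 and 0 were called, with Ccr7 at -0.89 (adjusted p = 0.484) and Cd3g at -0.52 (adjusted p = 0.542). Of 12 endothelial markers, 6 lay on either side of 0, with Eng at 0.29 (adjusted p = 0.21) and Pecam1 at -0.19 (adjusted p = 0.273). Of 6 smooth muscle and pericyte markers, Des, which skeletal muscle also makes, differed by 1.09 (adjusted p = 0.152) and Myh11 by -0.22 (adjusted p = 0.455). Of 5 Schwann cell and nerve sheath markers, S100b differed by 0.89 (adjusted p = 0.0952) and Mbp by 0.73 (adjusted p = 0.315). Of 7 bone, cartilage and epithelial markers, the epithelial adhesion protein Epcam was called lower (-0.57, adjusted p = 0.0494). The part of the adipocyte, endothelial, nerve and epithelial markers in the collagen values was not tested.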

How the data were processed

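Total RNA from frozen tissue was labelled with biotin and put on Affymetrix arrays (labels' protocols). What the authors deposited is linear microarray intensity. The submitters' processing notes name MAS5 (version and settings not given in the sources used here). The trimmed mean, without 2% at each end, was 1500 on every array, and medians ran from 531.3 to 617.4. Scaling to 1 mean hides differences in total RNA, bright probe sets can saturate, and 7 arrays a group limit precision.

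The scale was log2(signal + 46.7), with a pseudocount at the 10th percentile of the signals, so differences of dim genes are understated. Probe sets under a mean of 389.8 were left out, along with 64 control probe sets and those with several (932) or no (9160) symbols. Of 34945 with 1 symbol, 34741 were updated through Entrez identifiers and GRCm38.p6. Each of 12944 genes kept its brightest probe set. The groups' test was limma 3.58.1 under R 4.3.3 (lmFit, eBayes with trend; two-sided, Benjamini-Hochberg, 0.05). Chain ratios were tested by exact two-sided permutation over 3432 assignments (smallest p 5.83e-04), and correlations with 100000 permutations within groups. On simulated data 5.97%, 40.3% and 87.9% of genes changed by 0.3, 0.5 and 1 log2 were called, and 2.2% of calls were false. Alternatives covered normalisation, pseudocount, filter, probe set choice, weights, covariates and left-out arrays.

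Each collagen is described if it passed the filter; of each partner or marker list, up to 4 called genes are named, or the 2 with the smallest p. The members and lists were chosen with earlier results of these data known.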

Additional observations from a re-analysis of the deposited data

Results flagged for a closer look

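In 10 of the 62 collagen groups of 7 arrays checked, a single array stood apart from the other 6 by Dixon's criterion; chance alone flags about 1 group in 20. Of these, 6 were on sedentary array 7. It was low for Col6a3 (10034, others 19620 to 22698), Col5a1 (7465.8, others 10900 to 13012) and Col25a1 (138.5, others 343.1 to 591.6). It was high for Col4a5 (7784.8, others 2057.5 to 3311.2), Col4a6 (1174.6, others 436.1 to 551.3) and Col8a1 (1536.5, others 525.9 to 837.2). Among exercised arrays, number 7 was high for Col14a1 (11883, others 4792.4 to 6840.6), number 1 low for Col11a1 (346.6, others 484.1 to 606.8), number 2 low for Col23a1 (89.1, others 305.1 to 645.8) and number 5 low for Col12a1 (542, others 775.6 to 1003.9).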

How the results depend on the processing

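No collagen was called higher in any of 28 alternative settings, and 11 gave 1 or 2 lower calls. Lower calls numbered 2 with quantile normalisation and with array weights, and 1 with the filter at the 60th percentile, probe sets averaged, every probe set tested, lymphocyte markers as a covariate, or without sedentary arrays 5 and 7 (the last because earlier results had set them apart). Leaving out 1 array gave 0 to 1. Over all genes, 1.53% were called lower in the main fit. That share was 1.6% with quantile normalisation or averaged probe sets, 3.07% with array weights and 2.26% with the 60th percentile filter. It was 2.09% with the lymphocyte covariate, 1.89% without sedentary arrays 5 and 7, 0.83% with no filter, and 0.61% to 2.02% without 1 array. With every probe set tested, 1.22% of probe sets were called lower. Among partner lists, quantile normalisation gave 3 lower calls for synthesis and 1 for breakdown, and no filter 1 for breakdown; leaving out 1 array gave 0 to 2 lower for synthesis, 0 to 1 higher or lower for breakdown and 0 to 1 lower for other basement membrane genes.

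For chain ratios, quantile normalisation gave 0.12 for Col4a1 over Col4a2 (adjusted p = 0.035), and averaging probe sets 0.21 for Col5a1 over Col5a2 (0.0495) and 0.085 for Col6a1 over Col6a2 (0.101). Leaving out 1 array gave 0.11 to 0.16 for the first, 0.040 to 0.10 for the second, 0.16 to 0.22 for the third, -0.17 to -0.017 for Col6a1 over Col6a3 and 0.031 to 0.37 for Col1a1 over Col1a2.

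Some differences changed sign, all of genes not called. Quantile normalisation gave Col22a1 0.025 and Col3a1 -0.047. Centring arrays on their medians gave Col1a2 0.0026, Col22a1 0.028 and Col6a3 0.025. Averaging probe sets gave Col3a1 -0.13 and Col8a1 -0.045. Array weights gave Col22a1 0.0058 and Col4a4 -0.083. Muscle markers as a covariate gave Col1a1 -0.013, Col22a1 0.31, Col3a1 -0.030 and Col4a6 0.012. Lymphocyte markers as a covariate gave Col4a4 -0.15, Col6a3 0.049, Col7a1 -0.011 and Col8a1 -0.050. Leaving out sedentary arrays 5 and 7 gave Col22a1 0.012, Col25a1 -0.0094 and Col4a6 0.068. Leaving out 1 array gave -0.090 to 0.40 for Col1a1, -0.12 to 0.032 for Col1a2, -0.18 to 0.012 for Col20a1, -0.095 to 0.096 for Col22a1, -0.065 to 0.23 for Col25a1, -0.021 to 0.047 for Col3a1, -0.096 to 0.23 for Col4a4, -0.19 to 0.063 for Col4a6, -0.17 to 0.031 for Col6a3, -0.042 to 0.096 for Col7a1 and -0.037 to 0.21 for Col8a1. The cause was not tested.

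Deviations of same-numbered arrays had correlations of -0.43 to 0.38, over 0.1 in 3 of 7. In 3 of 7 the array of the same number was the best match. So few values cannot decide whether the numbers mark a pairing, and the main test used none. With the replicate block 0 collagens were called, 1.24% of all genes were, and Col6a1 over Col6a2 had 0.19 with adjusted p = 0.156.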

Other observations

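Collagens below the filter also had single high arrays. Col8a2 was at 805.9 on sedentary array 7, and Col17a1 at 1114 on 1 exercised array where the exercised median was 83.1. Neither was tested.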
